A study of Mus musculus with 12 samples.

Results

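A set of 10 genes of the smooth muscle contractile apparatus was followed in small brain vessels of Notch3 knockout and control mice. They were chosen by name for their place in the apparatus, with earlier results of these data known. The set holds Acta2, Tagln, Cnn1, Cald1, Tpm2, Smtn, Myh11, Myl9, Mylk and Des. These are 10 of the 18193 genes named by probe sets that the array's annotation pairs with 1 gene only. All 10 were among the 11727 genes tested after a filter on low values. Each gene is given by its brightest single-gene probe set (a group of short probes for one transcript), and the members have 23 such probe sets in all. The arrays were Affymetrix whole-genome mouse arrays, and values are GCRMA-normalised log2 intensities. Microvascular fragments were isolated from the cerebrum and the cerebellum of C57BL/6 mice aged 2 months. There were 3 control mice, wild type at Notch3, and 3 Notch3 knockout mice, and both regions of each mouse were hybridised, which makes 12 arrays in 4 groups of 3. The labels used here do not say how the knockout allele was made or which exons it lacks.

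The Notch3 probe sets were checked first. The brighter one lay between 10.8 and 11.6 on the control cerebral arrays and between 11.7 and 12 on the control cerebellar arrays. On the 6 knockout arrays it lay between 2.48 and 3.58, near the array median of 3.24 to 3.3, and the labels thus held on every array. Fragments of microvessels hold several cell types. Endothelial markers had a mean log2 level of 13.4 to 13.6 over 11 genes on every array. Lower RNA per smooth muscle cell and fewer such cells cannot be told apart in bulk RNA.

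Vascular smooth muscle contracts when myosin filaments pull on actin filaments. A rise in calcium activates myosin light chain kinase, which phosphorylates the regulatory light chain and switches the myosin motor on, while proteins bound along the thin filament set how far actin is open to the motor. Many of these genes are driven by serum response factor and its co-activator myocardin, which act on a short element called the CArG box. Notch3 is the main Notch receptor of arterial smooth muscle. When it is cleaved, its intracellular part joins the DNA-binding protein RBPJ.

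Promoter sequences are shown for 3 members because they are the stretch on which these regulators could act, and because the 3 genes changed by different amounts. They are the 250 bases before the RefSeq start of transcription (GRCm38.p6), read 5′ to 3′ on the gene's strand. Capitals mark CArG boxes, CArG-like sequences with at most 1 G or C among the 6 central bases, and TGGGAA, the core of the RBPJ motif. Acta2 lies at chr19:34255374-34255623 on the minus strand, Myl9 at chr2:156775214-156775463 on the plus strand and Cnn1 at chr9:22099003-22099252 on the plus strand.
Acta2: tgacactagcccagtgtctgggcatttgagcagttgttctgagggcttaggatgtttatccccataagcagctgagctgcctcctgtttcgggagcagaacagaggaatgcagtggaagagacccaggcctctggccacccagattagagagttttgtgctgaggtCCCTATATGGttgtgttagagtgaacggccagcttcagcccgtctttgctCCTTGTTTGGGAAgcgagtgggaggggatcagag
Myl9: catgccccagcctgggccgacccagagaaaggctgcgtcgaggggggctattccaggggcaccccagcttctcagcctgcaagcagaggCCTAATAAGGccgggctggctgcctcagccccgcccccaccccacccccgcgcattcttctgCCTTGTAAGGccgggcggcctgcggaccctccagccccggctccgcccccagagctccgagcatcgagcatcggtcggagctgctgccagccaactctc
Cnn1: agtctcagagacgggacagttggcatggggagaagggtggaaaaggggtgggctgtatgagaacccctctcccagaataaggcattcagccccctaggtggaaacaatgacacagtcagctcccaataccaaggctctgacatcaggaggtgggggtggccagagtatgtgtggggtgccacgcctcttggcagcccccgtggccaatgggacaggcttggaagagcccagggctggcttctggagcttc
The Acta2 promoter held 2 CArG-like sequences, 84 to 75 and 34 to 25 bases before the start. TGGGAA lay 27 to 22 bases before the start and overlapped the second of them. The Myl9 promoter held a CArG box 161 to 152 bases before the start and a CArG-like sequence 99 to 90 bases before it. In the Cnn1 window neither motif occurred. The Smtn promoter held TGGGAA on the opposite strand, 68 to 63 bases before the start, and the windows of Tpm2, Cald1, Mylk and Des held neither motif. Of all 32841 promoters of this length in the table, 1.47% held a CArG box, 8.59% a CArG box or CArG-like sequence, and 21.6% TGGGAA on either strand. A match is a match of letters, and binding was not measured.

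In the knockout, the contractile genes, each read by its brightest probe set, did not fall by one common amount. Other probe sets of Acta2, Cald1, Mylk, Tpm2 and Myh11 gave other sizes, as given below. With the mean of probe sets, Tagln, Tpm2 and Myl9 did not pass as lower relative to Acta2 per mouse. Per mouse, with both regions averaged, Cnn1 was lowest at 19.8% of control, then Myh11 at 30% and Tpm2 at 44.9%. Myl9 at 50.4% and Tagln at 52.1% followed, then Mylk at 66.6%, and Acta2 kept 76.3%. These 7 of the 10 members passed the test as lower and none as higher (limma, Benjamini-Hochberg adjusted p under 0.05). Of all genes tested, 3.0% were called lower and 1.02% higher. As the members were chosen with earlier results known, these counts describe the set and are no independent test of it. Des, Smtn and Cald1 had lower means that did not pass. All 3 knockout mice lay under all 3 controls for 9 of the 10 members, which 14.6% of all genes did. The median member change was -0.76 on the log2 scale, against -0.00 for all genes tested.

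**Figure D1:**
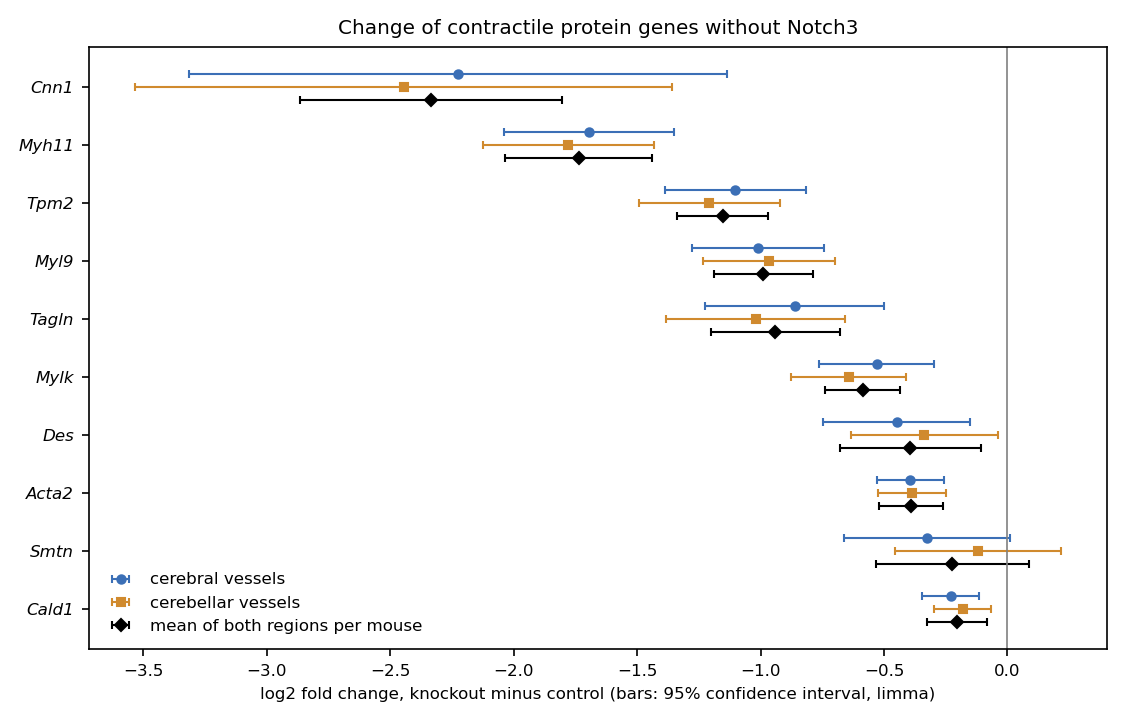
Log2 difference between knockout and control for the 10 members, with 95% confidence intervals, in cerebral vessels, cerebellar vessels and mouse means. Symbols mark the comparison and not the outcome of the test. The members spread from Cnn1 at -2.34 to Cald1 at -0.21 in the mouse means.

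The regions were then tested one by one. In cerebral vessels 8 members were called lower, against 3.93% of all genes, and in cerebellar vessels 7, against 3.16%. Cnn1, Myh11 and Tpm2 had the largest falls in both regions. Cald1 was called in cerebral vessels, as the smallest of the 8 changes, and did not pass in cerebellar ones, and Smtn and Des were called in neither region. The median change was -0.70 in cerebral and -0.80 in cerebellar vessels, against -0.01 and 0.01 over all genes. Groups did not overlap for 9 members in cerebral vessels, where 14.3% of all genes had all knockout arrays lower, and for 8 in cerebellar vessels, where 11.7% had.

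**Figure D2:**
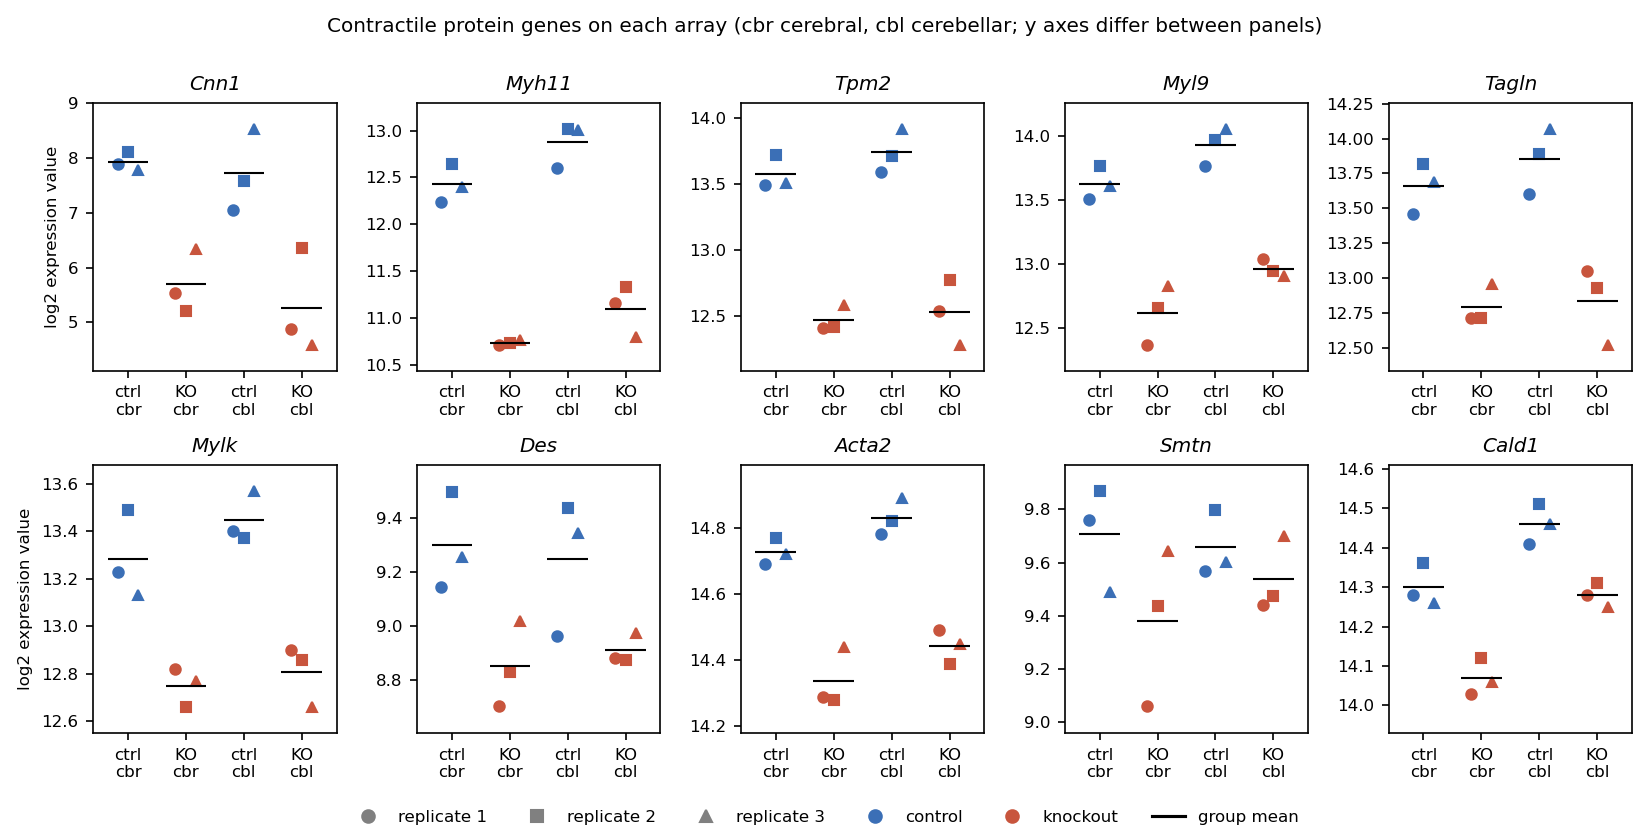
Log2 intensity of each member on all 12 arrays, 1 point per array with the group mean as a line; each panel is 1 gene and the 4 groups are control and knockout vessels of each region. Myh11, Tpm2, Myl9 and Tagln separate fully by genotype in both regions, while the values of Smtn overlap.

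Acta2, smooth muscle alpha-actin, forms the thin filament itself. Its probe set 1416454_s_at read 14.69, 14.77 and 14.72 in control cerebral vessels and 14.29, 14.28 and 14.44 in the knockout. In cerebellar vessels it read 14.78, 14.82 and 14.89 in controls and 14.49, 14.39 and 14.45 in knockouts. All knockout arrays lay under all control arrays, and the spread inside a group was small. The change was -0.39 (SE 0.06, adjusted p = 0.00438) in cerebral and -0.39 (adjusted p = 0.00505) in cerebellar vessels. Per mouse it was -0.39 (SE 0.05, adjusted p = 0.0139). The call on mouse means was lost without control mouse 2 (adjusted p = 0.067) and without knockout mouse 1 (adjusted p = 0.0587).

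Cnn1, calponin 1, binds actin and restrains the myosin motor, and it had the largest fall of the members. In control cerebral vessels it read 7.88, 8.10 and 7.78, and in the knockout 5.53, 5.21 and 6.34. In control cerebellar vessels it read 7.05, 7.58 and 8.53, and in the knockout 4.87, 6.35 and 4.59. The groups did not overlap in either region, but the spread was wide, with a standard deviation of 0.95 among knockout cerebellar arrays against 0.16 among control cerebral arrays. The change was -2.23 (SE 0.49, adjusted p = 0.0248) in cerebral and -2.45 (SE 0.49, adjusted p = 0.0196) in cerebellar vessels. Averaging both regions of a mouse gave -2.34 (SE 0.22, 95% interval -2.86 to -1.81, adjusted p = 0.00408), with the smaller error of the 3 estimates. In knockout mice 2 and 3 the cerebral and cerebellar deviations from the group mean were opposite (-0.48 and 1.08, 0.645 and -0.683) and partly cancelled in the average. The same held for control mice 2 and 3 (0.178 and -0.142, -0.14 and 0.811). In mouse 1 of each genotype both regions lay below their group mean. Single arrays decided the call within a region. It was lost in 5 of 6 fits that each left out 1 cerebral array, with adjusted p between 0.0321 and 0.0790, and kept only without knockout cerebral array 3. It was lost in 4 of the 6 cerebellar ones, with adjusted p between 0.00422 and 0.0843, and kept in all 6 on mouse means. Fitted on the cerebellar arrays alone, the cerebellar change did not pass (adjusted p = 0.0954).

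Tagln, transgelin or SM22, bundles actin and is an early marker of the smooth muscle lineage. Control cerebral vessels read 13.46, 13.82 and 13.69, and knockout ones 12.71, 12.71 and 12.96. Control cerebellar vessels read 13.60, 13.89 and 14.07, and knockout ones 13.05, 12.93 and 12.52. No knockout array reached the lowest control array. The fall was -0.86 (SE 0.16, adjusted p = 0.0117) in cerebral and -1.02 (adjusted p = 0.00524) in cerebellar vessels.

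Tpm2, beta-tropomyosin, lies along the actin filament and blocks or opens the myosin binding sites. It read 13.49, 13.72 and 13.51 in control cerebral vessels and 12.41, 12.42 and 12.58 in the knockout. Cerebellar vessels read 13.59, 13.71 and 13.92 in controls and 12.54, 12.77 and 12.28 in knockouts. The gap between the genotypes was wider than the spread within any group. The change was -1.10 (SE 0.13, adjusted p = 0.000648) in cerebral and -1.21 (adjusted p = 0.000368) in cerebellar vessels.

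Cald1 encodes caldesmon, which binds actin, tropomyosin and myosin. Its heavy form is the smooth muscle form, and a light form is made in most other cells. The probe set 1424769_s_at read 14.28, 14.36 and 14.26 in control cerebral vessels and 14.03, 14.12 and 14.06 in the knockout. In cerebellar vessels it read 14.41, 14.51 and 14.46 in controls and 14.28, 14.31 and 14.25 in knockouts. The arrays did not overlap within a region, yet the differences were small: -0.23 (SE 0.05, adjusted p = 0.0289) in cerebral and -0.18 (adjusted p = 0.0939) in cerebellar vessels. The cerebral call was lost without control cerebral array 1 or 2 and without knockout cerebral array 1 or 3, and when only the cerebral arrays were fitted (adjusted p = 0.123). On mouse means the value was -0.21 (95% interval -0.33 to -0.08, adjusted p = 0.0903). Other settings gained a call for the same probe set. In cerebellar vessels it passed without the filter (adjusted p = 0.0399), with trend and robust eBayes (adjusted p = 0.0358) and with array weights (adjusted p = 0.0355). Per mouse it passed with trend and robust eBayes (adjusted p = 0.04).

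Smtn, smoothelin, marks fully differentiated contractile smooth muscle. Control cerebral vessels read 9.76, 9.87 and 9.49, and knockout ones 9.06, 9.44 and 9.64. Control cerebellar vessels read 9.57, 9.80 and 9.60, and knockout ones 9.44, 9.47 and 9.70. The genotypes overlapped in both regions. The value was -0.33 (SE 0.15, adjusted p = 0.256) in cerebral and -0.12 (adjusted p = 0.776) in cerebellar vessels. On mouse means it was -0.22, with a 95% interval of -0.53 to 0.09 that holds both 0 and a fall larger than that of Acta2.

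Myh11 encodes the smooth muscle myosin heavy chain, the motor itself. It read 12.24, 12.64 and 12.40 in control cerebral vessels and 10.71, 10.73 and 10.76 in the knockout. Cerebellar vessels read 12.60, 13.02 and 13.01 in controls and 11.16, 11.33 and 10.80 in knockouts. The 3 knockout cerebral arrays lay close together, with a standard deviation of 0.02, and far under every control. The change was -1.70 (SE 0.16, adjusted p = 0.000119) in cerebral and -1.78 (adjusted p = 9.19e-05) in cerebellar vessels, a fall to 30.9% and 29.2% of control.

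Myl9 encodes the regulatory light chain that the kinase phosphorylates. It read 13.51, 13.77 and 13.61 in control cerebral vessels and 12.37, 12.66 and 12.83 in the knockout. In cerebellar vessels it read 13.77, 13.97 and 14.06 in controls and 13.04, 12.95 and 12.91 in knockouts. No values overlapped between genotypes within a region. The change was -1.01 (SE 0.12, adjusted p = 0.000721) in cerebral and -0.97 (adjusted p = 0.00104) in cerebellar vessels.

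Mylk encodes myosin light chain kinase, which switches the motor on. It read 13.23, 13.49 and 13.13 in control cerebral vessels and 12.82, 12.66 and 12.77 in the knockout. Cerebellar vessels read 13.40, 13.37 and 13.57 in controls and 12.90, 12.86 and 12.66 in knockouts. All knockout arrays were lower. The change was -0.53 (SE 0.10, adjusted p = 0.0148) in cerebral and -0.64 (adjusted p = 0.00613) in cerebellar vessels. Fitted on the 6 cerebral arrays alone, the cerebral change did not pass (adjusted p = 0.0757).

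Des, desmin, is the intermediate filament that ties the contractile units to the cell cortex, and pericytes make it too. It read 9.14, 9.50 and 9.25 in control cerebral vessels and 8.70, 8.83 and 9.02 in the knockout. Cerebellar vessels read 8.96, 9.44 and 9.34 in controls and 8.88, 8.87 and 8.97 in knockouts. Cerebral values did not overlap, while the highest knockout cerebellar array exceeded the lowest control. The value was -0.45 (SE 0.13, adjusted p = 0.0805) in cerebral and -0.34 (adjusted p = 0.231) in cerebellar vessels. On mouse means it was -0.39, with an interval of -0.68 to -0.11 and an adjusted p of 0.142.

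The unequal falls were tested by subtracting each array's Acta2 value from every other gene on it. Relative to actin, 5 of the 9 other members were lower per mouse, where 2.07% of all genes were called lower. These were Cnn1 (-1.95), Myh11 (-1.35), Tpm2 (-0.76), Myl9 (-0.60) and Tagln (-0.55). They passed the test in both regions too, where 1.89% of all genes in cerebral and 1.77% in cerebellar vessels were called lower. In cerebral vessels the falls relative to actin were -1.83 for Cnn1 (adjusted p = 0.00532), -1.30 for Myh11 (adjusted p = 0.000279) and -0.47 for Tagln (adjusted p = 0.0131), which lost the call without control cerebral array 2 (adjusted p = 0.0509). Relative to Acta2, Mylk passed in cerebellar vessels (-0.26, adjusted p = 0.0433) and did not pass in cerebral ones (-0.14) or per mouse (-0.20, 95% interval -0.38 to -0.01, adjusted p = 0.0520). The cerebellar call of Mylk was lost with the replicate block (adjusted p = 0.0716) and in 5 of 6 fits that left out 1 array, with adjusted p up to 0.164, and was kept without knockout cerebellar array 2. Per mouse Mylk passed without the filter (adjusted p = 0.03), with the filter at the 75th percentile (adjusted p = 0.0447) and with trend and robust eBayes (adjusted p = 0.0324).

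The choice of probe sets mattered for the comparison with actin. In another fit each gene was given by the mean of its probe sets that passed the filter, which adds the dim set 1444105_at to Acta2. Tagln (-0.21, adjusted p = 0.323), Tpm2 (-0.21, adjusted p = 0.323) and Myl9 (-0.26, adjusted p = 0.225) then lost the call per mouse. They lost it in both regions too, and Myh11 lost it in cerebral vessels (-0.35, adjusted p = 0.120).

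Des, Smtn and Cald1 did not pass relative to actin per mouse either. Des differed from it by -0.00, with an interval of -0.25 to 0.24, and Smtn by 0.17, with an interval of -0.12 to 0.45. Cald1 was 0.18 higher relative to Acta2 per mouse (adjusted p = 0.0524), 0.16 in cerebral vessels and 0.21 in cerebellar ones, where it passed (adjusted p = 0.0368) and 69.7% of all genes were called higher. That call was lost in 4 of 6 fits that left out 1 array, with adjusted p up to 0.131, and kept without control cerebellar array 2 or knockout cerebellar array 1. With Acta2 subtracted, 78.0% of all genes passed the test per mouse in one direction or the other, since the fall of Acta2 then enters every gene. Adjusted p-values relative to Acta2 thus lie close to the unadjusted limma ones, as for Mylk in cerebellar vessels (0.0433 against 0.03025). They cannot be set beside adjusted p-values of the other fits.

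Other probe sets of the same genes bore on the sizes. Of the 23 single-gene probe sets of the members, 17 passed the filter, all 17 were lower in the knockout per mouse, and 11 of them passed the test over all probe sets. Suffixes mark the design: probes of an _s_at set may match transcripts of more than one gene, those of an _a_at set match several transcripts of one gene, and an _x_at set may bind other sequences. The sets 1424770_at and 1424768_at of Cald1 fell by more than the chosen one. They changed by -0.59 (SE 0.08, adjusted p = 0.0199) and -0.65 (SE 0.11, adjusted p = 0.0333) per mouse, against -0.21 for the chosen set. In cerebellar vessels both passed as well, with adjusted p of 0.00462 and 0.00456. The small size and the lost call of Cald1 thus belong to 1 of its 3 bright probe sets.

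Mylk and Tpm2 had a second bright probe set with a larger fall. The set 1425505_at of Mylk changed by -1.03 (SE 0.15, adjusted p = 0.0241) against -0.59, and 1425028_a_at of Tpm2 by -1.43 (SE 0.12, adjusted p = 0.00396) against -1.15. Within a mouse, the second set minus the chosen set was lower in all 3 knockouts than in all 3 controls for Mylk, for Tpm2 and for both of Cald1. These differences were -0.44, -0.27, -0.38 and -0.45. The dim sets gave -0.68 for 1444105_at of Acta2 but, the other way, 0.92 for 1449577_x_at of Tpm2 and 1.14 for 1418122_at of Myh11. All 7 pairs separated the genotypes fully, each with an exact two-sided permutation p of 0.1, the smallest that 3 against 3 mice can give. The chosen sets of Acta2 and Cald1 were brighter than 99.6% and 99.3% of all probe sets. Whether brightness bears on the size of a change was not tested. Per mouse, none of the dim sets passed the test on its own. The set 1444105_at of Acta2, with a mean of 3.85, gave -1.07 (adjusted p = 0.0693). The set 1418122_at of Myh11 gave -0.59 (adjusted p = 0.0959) and 1449577_x_at of Tpm2 gave -0.24 (adjusted p = 0.392). In cerebellar vessels 1418122_at of Myh11 did pass (-0.79, adjusted p = 0.0228), and the other dim sets did not.

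**Figure D3:**
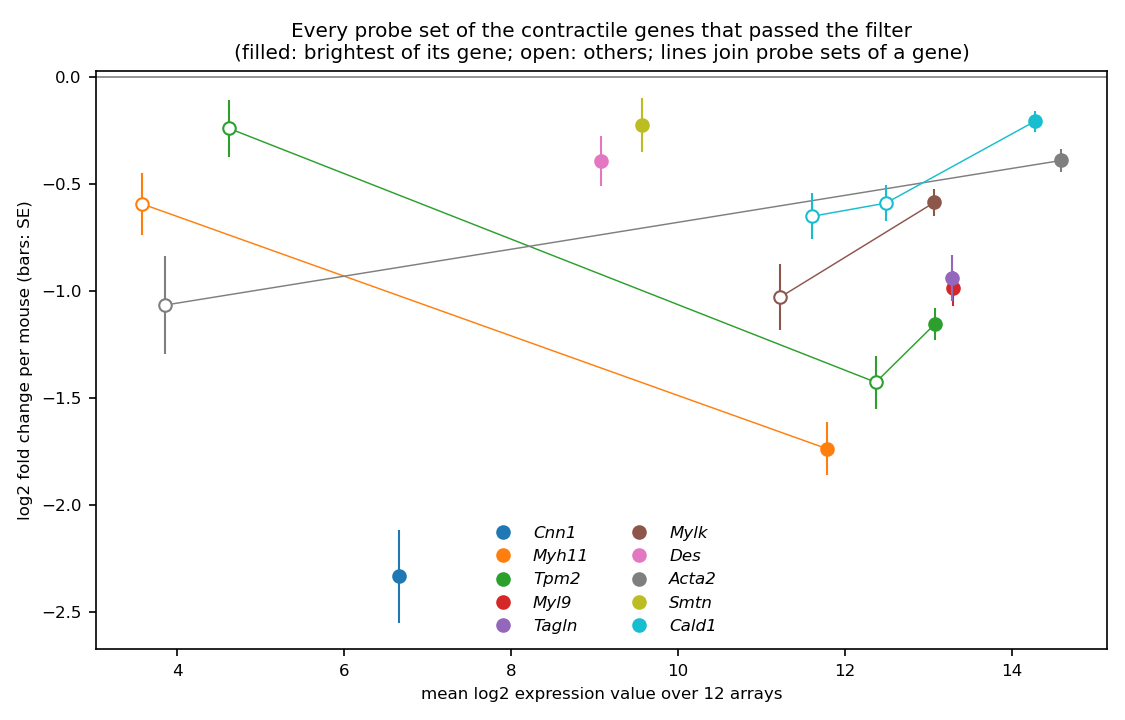
Knockout minus control in log2 units, from mouse means, for the single-gene probe sets of each member that passed the filter, plotted against their mean log2 intensity. Filled points are the chosen sets and open points the others. All lie under 0, and the second sets of Cald1, Mylk and Tpm2 lie under the chosen ones.

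Cerebellar and cerebral vessels were then compared within each genotype. In controls none of the 10 members passed the test, against 2.29% of all genes in either direction, and 3 had an unadjusted limma p under 0.05. These were Myh11, higher by 0.45 in cerebellar vessels (adjusted p = 0.195), Myl9 by 0.30 (adjusted p = 0.270) and Cald1 by 0.16 (adjusted p = 0.168). In the knockout 1 member passed, where 3.84% of all genes were called higher: Cald1 was 0.21 higher in cerebellar vessels (SE 0.05, adjusted p = 0.0425). Myh11 was 0.36 higher (adjusted p = 0.207) and Myl9 0.35 higher (adjusted p = 0.121). Cerebellar values of Acta2 and Cald1 in controls, and of Cald1, Myh11 and Myl9 in knockouts, lay above all cerebral ones, which 10.9% and 12.9% of all genes did.

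Both regions came from the same mice. With the mouse as a replicate block within the arrays compared, Cald1 in the knockout lost its call (adjusted p = 0.0803). With the mouse as a random replicate block it kept it (adjusted p = 0.00784), Myl9 in the knockout joined it (adjusted p = 0.0442), and so did Cald1 in controls (adjusted p = 0.043). The Cald1 call was also lost in 5 of 6 fits without 1 knockout array, and its probe set 1424768_at gave -0.05 in place of 0.21.

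The knockout's effect did not differ detectably between the regions. The difference of the effects lay between -0.22 (Cnn1) and 0.21 (Smtn), and 0 of the 10 members passed the limma test or had an unadjusted p under 0.05. Over all genes 0.0426% passed. For Acta2 the difference was 0.01 with a 95% interval of -0.19 to 0.20, and for Myh11 -0.08 with an interval of -0.57 to 0.41. For Cnn1 the interval ran from -1.76 to 1.32, so that a large difference between regions would not have been seen.

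**Figure D4:**
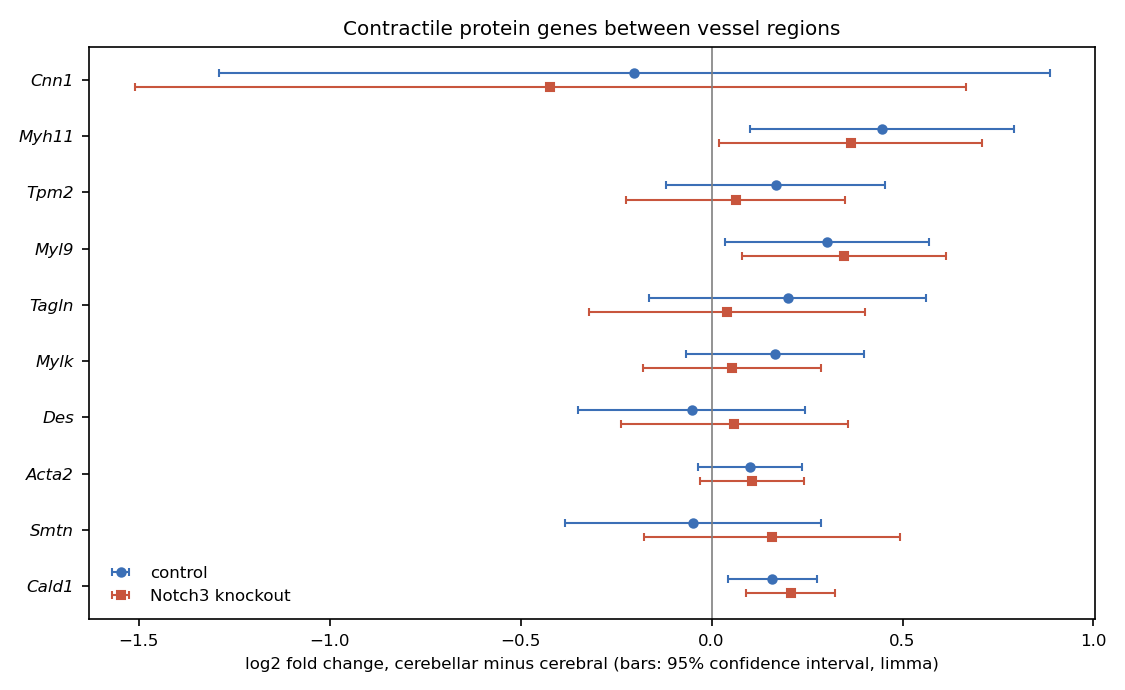
Cerebellar minus cerebral log2 difference for each member in control and in knockout mice, with 95% confidence intervals. Symbols mark the genotype. Cald1 in the knockout, at 0.21, is the 1 value that passed the test.

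Partners and other isoforms of smooth muscle were compared per mouse. Of 15 tested, 7 were lower, against 3.0% of all genes, 1 was higher, against 1.02%, and 7 did not pass. Their median change was -0.55. Lmod1, the leiomodin that nucleates actin filaments, fell by 1.33 (SE 0.18, adjusted p = 0.0132). The actin-binding Synpo2 fell by 1.19 (adjusted p = 0.00368) and the PDZ and LIM domain protein Pdlim3 by 1.13 (adjusted p = 0.00557). The 1 higher gene was Fhl2, a LIM-only protein named here after its value was seen, at 0.74 (SE 0.06, adjusted p = 0.00176).

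Non-muscle forms of the member proteins are made in most cells of the vessel wall. None of the 13 tested, among them Actb, Tagln2, Myh9, Tpm4 and Vim, passed the limma test per mouse, and 2 had an unadjusted p under 0.05. Their median was 0.01, and the values ran from -0.17 (Cnn2) to 0.11 (Cnn3). In cerebral vessels Cnn2, a calponin of many cell types, was called lower at -0.26 (adjusted p = 0.0361), as were 3.93% of all genes.

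Among 15 tested genes of light chain phosphorylation and calcium sensitivity, 4 were lower per mouse, against 3.0% of all genes. The other 11 did not pass, and the median of the 15 was -0.14. Ppp1r12b, a targeting subunit of myosin phosphatase, fell by 1.66 (SE 0.12, adjusted p = 0.00162). Arhgef25 had the next largest change of the called genes, at -0.90 (adjusted p = 0.00384). Ppp1r14a, the phosphatase inhibitor CPI-17, fell by 0.86 (adjusted p = 0.00693). With Mylk, lower genes stood on both the kinase and the phosphatase side of the light chain.

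Of 11 transcription factors of contractile genes, 1 passed as lower per mouse, against 3.0% of all genes, and the median was -0.06. This was Myocd, myocardin, which fell by 1.65 (SE 0.18, adjusted p = 0.0069), with -1.41 in cerebral and -1.88 in cerebellar vessels. Srf, its DNA-binding partner, had a value of -0.23 that did not pass (adjusted p = 0.0898).

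**Figure D5:**
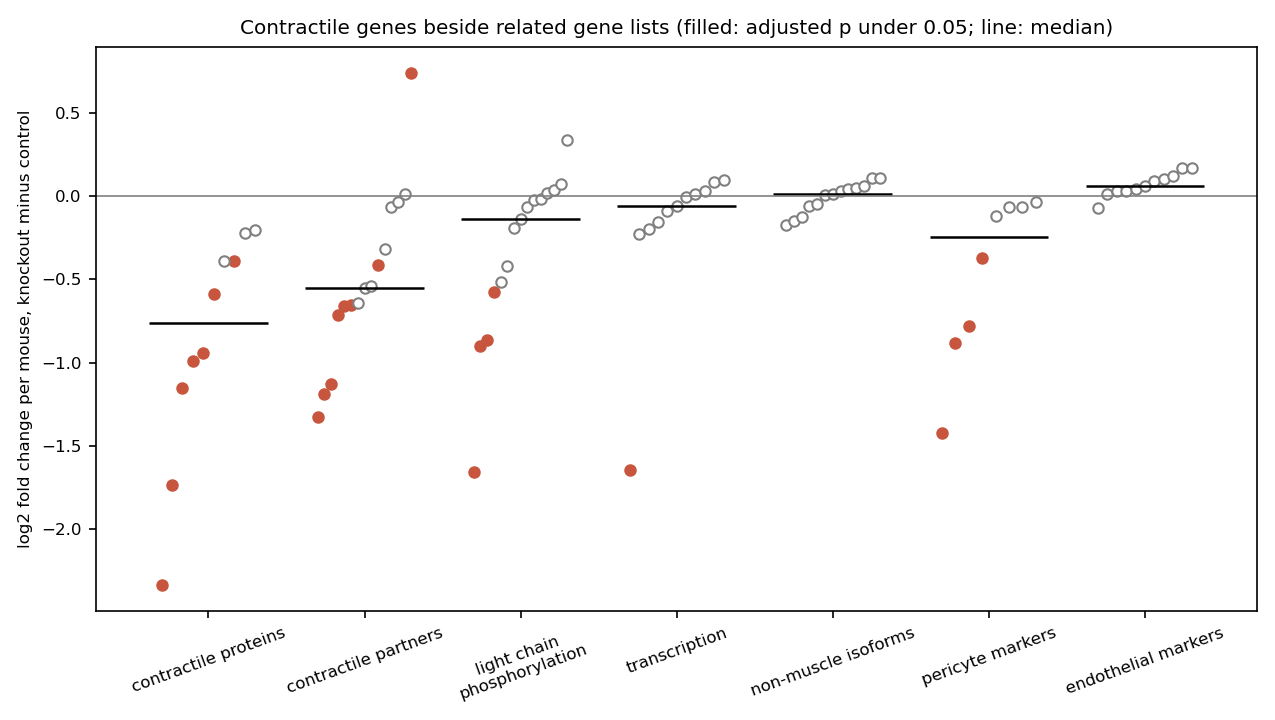
Log2 knockout minus control per mouse for every tested gene of the members, the 4 pathway lists and the pericyte and endothelial marker lists. Each point is 1 gene, filled where it passed the test, and lines mark medians. The member median is -0.76, that of the non-muscle isoforms 0.01 and that of the endothelial markers 0.06.

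Markers of other cells were read beside the members. Of 8 tested pericyte markers 4 were lower per mouse, against 3.0% of all genes, and 4 did not pass, with a median of -0.25. Ndufa4l2 fell by 1.42, Higd1b by 0.88 and Cspg4 by 0.78, while Rgs5 had a value of -0.06. The mean log2 level of the 9 pericyte genes was 10.7 to 10.9 in control and 10.3 to 10.4 in knockout cerebral vessels, and 11.2 to 11.5 and 10.9 to 11 in cerebellar vessels. Their part in the members' change was not tested. None of 11 endothelial markers passed per mouse, and their median was 0.06; 1 had an unadjusted p under 0.05. Of 6 fibroblast markers Col3a1 was higher (0.77) and Col1a2 lower (-0.47) per mouse, against 1.02% and 3.0% of all genes.

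Of 6 microglial markers, 2 were called higher in cerebral vessels, where 2.45% of all genes were. The median of the 6 was 0.84, and each had an unadjusted p under 0.05. Their mean level was 11.9 to 12.5 in control and 12.7 to 13.4 in knockout cerebral vessels, but 11.6 to 12 and 11.8 to 12.1 in cerebellar vessels. The part of these markers in the members' change was not tested. None of 4 astrocyte, 3 neuronal, 1 oligodendrocyte and 2 skeletal and cardiac muscle genes tested passed per mouse, and 1 astrocyte gene had an unadjusted p under 0.05. Of 10 striated muscle markers, which could share Des, Tpm2 and Mylk, 8 lay at or under the filter's threshold of 3.27 in every group, Acta1, Ckm and Ttn among them.

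For the 7 members called per mouse, the genes with the most like pattern were found by the root mean square difference over the 12 arrays, after each gene's own mean was removed. This is a description over arrays that share mice and genotypes. Acta2 was closest to Tgfb1i1 (0.066 log2 units), Tigar and Inpp5a, and Tagln to Nexn (0.123), Errfi1 and Dpysl3. Myh11 was closest to Ppp1r12b (0.124), Ccdc3 and Stum, and Tpm2 to Rgs7bp (0.13), Synpo2 (0.137) and Palld. Myl9 was closest to Smarcd3 (0.129), Sncg and Errfi1, and Mylk to Inpp5a (0.107), Filip1l and Map3k20. Cnn1 had no neighbour as close, the nearest being Kcnab1 at 0.465, Crispld2 and Sh3bgr.

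Members also deviated together on some arrays. On control cerebral array 2 all 10 lay above the mean of their group, and on control cerebellar array 1 all 10 lay below it. The mean deviation of the members from their group ran from -0.203 to 0.17 over the 12 arrays.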

How the data were processed

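Total RNA from microvascular fragments (3 mice per genotype, 2 regions) was hybridised to 12 arrays. The authors deposited 1 table of log2 values, made with GCRMA 2.32.0 per the submitters' processing notes; its values run from 0.69 to 16.3 and were used as deposited. Depth does not apply to arrays, and their number limits the precision. Of 45101 probe sets, 34958 named 1 gene, 932 several and 9211 none; 34754 had their symbol checked by gene number. Each gene was given by its brightest probe set, and genes with at least 3 arrays above 3.27, the median of all values, were tested. limma 3.58.1 (R 4.3.3) fitted 4 group means over 12 arrays (8 residual degrees of freedom) and, separately, 6 mouse means (4 residual degrees of freedom); p-values are two-sided and Benjamini-Hochberg adjusted over all 11727 genes. The region of a mouse was linked by the replicate number in the sample titles. Deviations from the group means of same-numbered regions correlated at 0.371 to 0.547 in controls and 0.573 to 0.705 in knockouts, and all 6 arrays of each genotype correlated best with their own number. The text names all 10 members, up to 3 genes of each list with the largest change, called ones first, and the 3 genes nearest to each called member. The members and lists were chosen with earlier results of these data known. The scripts were tested on simulated data. Alternatives covered the filter, scaling, variance model, array weights, probe set choice, replicate block and single arrays left out. Promoters came from RefSeq, GRCm38.p6, for 8 of the 10 members.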

Additional observations from a re-analysis of the deposited data

How the results depend on the processing

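No member changed direction between knockout and control under any alternative fit, single arrays left out included (186 values in cerebral, 186 in cerebellar vessels and 156 per mouse). Of the 6 probe sets under the filter, which were not fitted, 1433146_at of Cald1 and 1426732_at of Des had cerebral differences above 0 (0.0088 and 0.0054). Leaving out 1 array or mouse gave 6 to 7 members lower in each of these 3 comparisons. The replicate number did not pair knockout with control mice (deviations correlated at -0.166 to 0.259; 4 of 6 cerebral and 3 of 6 cerebellar arrays correlated best with their own number). As a replicate block within the arrays compared, which leaves 2 residual degrees of freedom, it left 4 cerebral and 2 cerebellar members lower. As a replicate block in a fit of all 12 arrays, chosen after seeing the data, it gave 9 and 7. Over the settings, all genes called numbered 310 to 1418 in cerebral vessels and 205 to 742 in cerebellar ones; the cause was not tested. Without the filter the Cnn1 calls were lost (adjusted p = 0.0612 and 0.0524). Fitting only the arrays of the groups compared ended the cerebral calls of Mylk (adjusted p = 0.0757) and Cald1 (0.123) and the cerebellar call of Cnn1 (0.0954).

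Relative to Acta2, 1 member (Cald1) was called higher in cerebral vessels and per mouse with no filter and with trend and robust eBayes, per mouse with the filter at the 75th percentile, and none in cerebellar vessels with the replicate block. The mean of the probe sets that passed the filter adds the dim set 1444105_at to Acta2. With it, 1 cerebral, 2 cerebellar and 2 members per mouse were lower. Smtn was the 1 member called higher per mouse (0.50, adjusted p = 0.0191). In cerebellar vessels Smtn was called higher too (0.64, adjusted p = 0.0104), and Cald1 lost its call (adjusted p = 0.322). Des reversed to 0.25 in cerebral vessels and 0.33 per mouse. Single arrays left out gave 4 to 5 lower and 0 to 1 higher in cerebral, 5 to 6 and 0 to 1 in cerebellar vessels, and 5 and 0 to 1 per mouse; Smtn ran from -0.038 to 0.20 in cerebral vessels, and Des from -0.11 to 0.022, -0.069 to 0.15 and -0.092 to 0.086.

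Between regions, members higher in the knockout numbered 0 with the mean of probe sets, with only the arrays compared and with the replicate block, 2 with the random replicate block, and 0 to 1 with single arrays left out. In controls they numbered 2 with array weights (Cald1 0.18, Myh11 0.57) and 1 with the random replicate block. Reversals in controls were Des 0.075 with array weights and Tpm2 -0.22 for 1449577_x_at; in knockouts, Tagln -0.0040 with array weights, Myh11 -0.22 for 1418122_at, Cald1 -0.053 for 1424768_at and Tpm2 -0.033 for 1449577_x_at. Single arrays left out gave ranges through 0 for Cnn1 (-0.61 to 0.13), Smtn (-0.16 to 0.033) and Des (-0.15 to 0.091) in controls, and for Tagln (-0.068 to 0.20), Tpm2 (-0.058 to 0.19), Smtn (-0.0022 to 0.29) and Des (-0.014 to 0.14) in knockouts. With 3 mice per genotype, the change of Smtn, whose interval spans 0, was not resolved.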
